A study of Homo sapiens with 6 samples.

Results

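The genes described here form the core of the apoptosis machinery and its p53-linked regulators in hemogenic endothelium, the endothelium from which blood cells arise. They were chosen by symbol, and all 43 listed symbols were found among the 29436 gene symbols of the deposited count table. They fall into survival members of the BCL2 family (5 genes), killer members of that family and their relatives (13), caspases with the apoptosome and its inhibitors (10), death receptors with their adaptors (9) and a p53 loop (6). A filter on low counts kept 41 of the 43 for testing. BCL2A1 and FADD were too low to be tested.

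The cells were differentiated from the human embryonic stem cell line H1, co-cultured with AGM-S3 stroma. In the lipoic acid group (ALA) the hematopoietic inducing medium held 100 µg/ml alpha lipoic acid, an antioxidant and enzyme cofactor, and in the untreated group (Ctrl) it held none. CD34+ CD43- KDR+ CD144+ cells were sorted on day 8, 1000 per library, and 3 lipoic acid and 3 untreated libraries of amplified polyA cDNA were compared. The study concerns lipoic acid in making blood stem and progenitor cells from pluripotent cells. All libraries come from 1 line, and the labels do not say whether they are separate cultures, so the p-values reflect the spread among 3 libraries a group, possibly technical alone.

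In apoptosis, cell stress and survival signals meet at the mitochondrial outer membrane. BH3-only proteins sense stress and engage the survival proteins of the BCL2 family, and once those are occupied, the pore-forming members BAX and BAK1 open the membrane. Cytochrome c then leaves the mitochondrion and assembles with APAF1 into the apoptosome, which activates caspases, the proteases that take the cell apart. Death receptors at the cell surface start a parallel route through adaptor proteins and the initiator caspases CASP8 and CASP10, and p53 raises transcription of genes on both routes.

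Total counts ran from 31404734 to 41351951 in the lipoic acid libraries and from 30041494 to 32034433 in the untreated libraries. In all lipoic acid libraries and untreated library 1, even numbers made up 99.1% to 99.3% of the nonzero counts, whereas they made up 52.0% in untreated libraries 2 and 3. In the 4 libraries of even counts the number of independent reads may thus be smaller than the count. Since these are all lipoic acid libraries and only 1 untreated library, an effect of count handling is partly confounded with treatment. Of 10 endothelial and sort-gate markers all were detected, 2 rose and 5 fell, and their summed level was 9993 to 10311 CPM (counts relative to the scaled library size, as described under processing) with lipoic acid and 11564 to 11639 CPM in untreated libraries. Markers of other cell types also differed. Of 11 endoderm and hepatic markers 8 rose and 1 fell (SOX17, also an endothelial gene), with sums of 226 to 292 CPM against 118 to 127 CPM and with ALB untested at 0.260 and 0.0205 CPM. Of 8 epithelial markers 6 rose, with sums of 410 to 476 CPM against 226 to 249 CPM and EPCAM not called at 5.45 and 6.32 CPM. Of 7 megakaryocytic markers 5 were tested and 4 rose, with sums of 44.2 to 53.2 CPM against 13.5 to 14.6 CPM and PPBP at 0 in every library. Of 11 mesenchymal markers 1 rose and 6 fell, with sums of 1462 to 2011 CPM against 1926 to 2555 CPM. Of 9 blood and myeloid markers 2 fell, with sums of 251.2 to 279 CPM against 307 to 330 CPM, and PTPRC, SPN, SPI1, MPO and CD52 were at 0 in every library. Of 7 pluripotency markers 4 were tested and 3 rose, with sums of 93.1 to 95.6 CPM against 79.98 to 83.9 CPM and POU5F1 at 0 in every library. Of 10 erythroid markers only 1 was tested, GYPB, which was called higher (0.521 CPM against 0). GYPB passed the filter on low counts through the lipoic acid libraries alone, so its call adds no support. So did some other markers counted as rising here, such as CDH1, ESRP1, FOXA2 and USP44. The erythroid sums were 0.919 to 1.46 CPM against 0.123 to 0.665 CPM, with HBE1, HBG1, HBA1 and HBA2 at 0. Untested HBG2 (mean 0 against 0.252 CPM) and KLF1 (0 against 0.188 CPM) were lower with lipoic acid. Genes of the mitochondrial genome took 4.39% to 5.02% of counts with lipoic acid and 2.45% to 2.82% without. The part of these differences in the results below was not tested, and in such bulk samples fewer cells of a type and less RNA per cell cannot be told apart.

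With lipoic acid, 11 of the 41 tested genes rose and 12 fell at an adjusted p under 0.05 in edgeR's quasi-likelihood test, and 18 did not pass. Over all 13780 tested genes 24.2% rose and 23.3% fell, in all 47.4%, so the members' 26.8% and 29.3% lie near that background. At a fold of at least 1.5, 4 members rose (HRK, BCL2, BBC3 and BMF) and 5 fell (CASP8, TRADD, TNFRSF1A, SPATA18 and RIPK1), which is 22.0% of the members against 23.8% of all tested genes. The median log2 fold change of lipoic acid over untreated was 0.09 for the members and -0.01 for all tested genes. In 29 of 41 members (70.7%) the groups did not overlap in CPM, against 59.1% of all tested genes. In 15 of these the lipoic acid libraries were higher (30.4% of all tested genes) and in 14 lower (28.8%). After correction of each library for GC content and exon length, 9 members rose and 11 fell. Over all genes that correction left rises as 39.7% of the calls (50.9% uncorrected) and a median log2 fold change of -0.10. The number of falls depended on single libraries, among the members and over all tested genes. Without lipoic acid library 1 there were 7 falls among 41 members and 2634 among 14129 tested genes. Without lipoic acid library 3 there were 6 among 41 members and 2386 among 14129 tested genes.

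**Figure D1:**
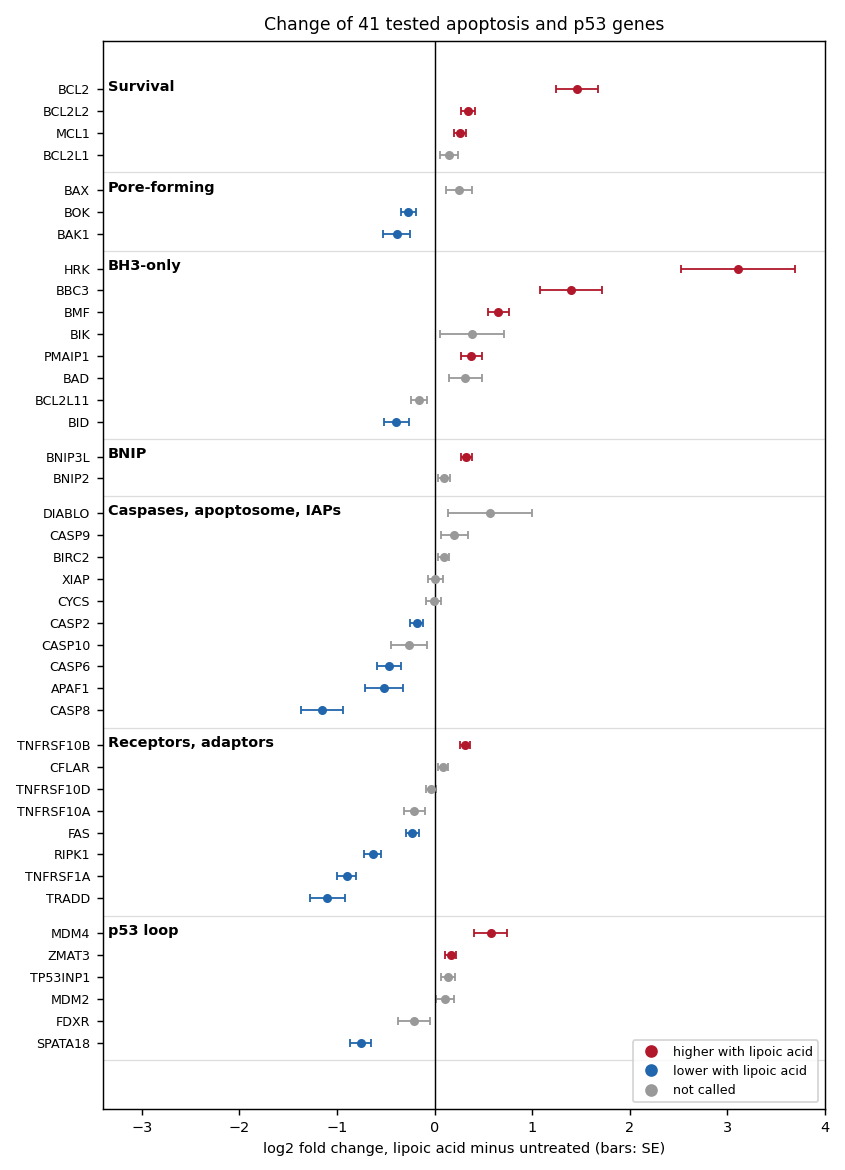
Log2 fold change of lipoic acid over untreated libraries (x axis; bars are standard errors from the edgeR fit) for the 41 tested genes, grouped by role, with genes called higher in red, called lower in blue and not called in grey. All 3 called survival genes lie right of 0, all 4 called genes among caspases and the apoptosome lie left of it, and HRK lies farthest to the right at 3.11. Over all tested genes 24.2% were called higher and 23.3% lower.

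Of 4 tested survival genes 3 rose and 0 fell, and of 8 BH3-only genes 4 rose and 1 fell. Of 10 caspase and apoptosome genes 0 rose and 4 fell, and of 8 tested receptor and adaptor genes 1 rose and 4 fell. The p53 loop had 2 rises and 1 fall among 6. The median log2 fold change was 0.30 for survival genes, 0.38 for BH3-only genes, -0.10 for caspases and the apoptosome, -0.22 for receptors and adaptors and 0.12 for the p53 loop. Over all tested genes 24.2% rose and 23.3% fell, with a median log2 fold change of -0.01. These are counts of small lists, and no class was tested against another or against all genes.

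Among the survival genes, BCL2 changed most and was also the tested member of its class with the lowest level. BCL2, the founding apoptosis inhibitor of the family (chromosome 18, 63123346 to 63320128, GRCh38), stood at 7.97, 9.75 and 7.54 CPM in lipoic acid libraries 1 to 3, against 3.01, 2.39 and 3.76 CPM in untreated libraries 1 to 3. Every lipoic acid library lay above every untreated one. The rise was 2.75-fold (log2 fold change 1.46 ± 0.22, SE; adjusted p = 0.000479). Its size was 2.79-fold among the 4 libraries of even counts, a fit that has 1 control and takes its spread from the lipoic acid libraries.

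MCL1, a short-lived survival protein (chromosome 1, 150574551 to 150579738), was the highest of the class at 116, 118 and 120 CPM with lipoic acid, against 101, 91.4 and 103 CPM in untreated libraries. Its groups did not overlap either, and it rose 1.199-fold (log2 0.26 ± 0.07; adjusted p = 0.00856), a call lost after correction for GC content and length (MCL1 adjusted p = 0.147). BCL2L2, which encodes BCL-W, averaged 45.5 ± 2.41 CPM with lipoic acid and 35.8 ± 0.940 CPM without (SD, n = 3 each), a 1.27-fold rise (adjusted p = 0.0033), though a read-through gene shares 19.4% of its exons on the same strand. BCL2L1, which encodes BCL-XL, averaged 69.8 ± 3.49 and 63.0 ± 7.85 CPM in lipoic acid and untreated libraries and was not called (adjusted p = 0.212), and without untreated library 1 it was called higher (adjusted p = 0.023). Of the exons of BCL2L1 43.0% lie opposite a gene on the other strand, and the strand setting of the counting is not given in the sources used here. BCL2A1, an NF-kB-induced survival gene, was at 0 throughout, where 3 counts over a group would be 0.053 CPM in lipoic acid and 0.0393 CPM in untreated libraries. Because levels between genes need a length correction, the order within the class was read per kilobase of exon. On that scale MCL1 (27.0 CPM per kilobase with lipoic acid, 22.6 without) and BCL2L1 (21.1 and 19.0) exceeded BCL2L2 (10.9 and 8.54), and BCL2 was lowest of those detected (0.716 and 0.260).

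Of the 3 pore-forming killers 2 fell and 1 was not called. BOK, a BAX-like protein (chromosome 2, 241551424 to 241574138), had 56.5, 53.3 and 53.5 CPM with lipoic acid, against 71.1, 64.4 and 61.2 CPM in untreated libraries. The groups did not overlap, and BOK fell 1.21-fold (log2 -0.27 ± 0.07; adjusted p = 0.0135). The BOK call was lost without lipoic acid libraries 2 (adjusted p = 0.0562) or 3 (0.0668), without untreated library 1 (0.0537) and after correction for GC content and length (0.822). BAK1, a pore-forming protein of the mitochondrial outer membrane, averaged 13.4 ± 1.195 CPM with lipoic acid and 17.5 ± 2.75 CPM without, with overlapping groups, and fell 1.31-fold (adjusted p = 0.0424). Its call was lost without lipoic acid libraries 1 (0.117), 2 (0.141) or 3 (0.0648), without untreated libraries 2 (0.0967) or 3 (0.115), with the replicate block (0.0519), among even-count libraries only (0.587), after correction for GC content and length (0.122) and at a threshold of 0.01. BAX, the other pore former of that membrane, averaged 12.3 ± 0.688 and 10.3 ± 0.994 CPM in lipoic acid and untreated libraries and was not called (adjusted p = 0.143).

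The largest fitted rise of any member was that of a BH3-only gene. HRK (Harakiri; chromosome 12, 116856144 to 116881441), an activator of apoptosis best known from neurons, had 1.05, 1.58 and 1.06 CPM with lipoic acid, against 0.246, 0.0665 and 0.0997 CPM in untreated libraries. Every lipoic acid library exceeded every untreated one, but with even counts halved these levels rest on 68 counts over the lipoic acid and 9 over the untreated libraries. The fitted rise of HRK was 8.63-fold (log2 3.11 ± 0.59; adjusted p = 0.00185), and its size depended on untreated library 1, at 14.3-fold without that library and 4.93-fold with it as the sole control among libraries of even counts. HRK passed the filter on low counts through the lipoic acid libraries alone, so its call adds no support. BBC3, which encodes PUMA, a direct p53 target (chromosome 19, 47220822 to 47232766), had 2.79, 2.60 and 2.47 CPM with lipoic acid, against 1.05, 1.197 and 0.731 CPM without. Its groups were well apart relative to their spread, and BBC3 rose 2.63-fold (log2 1.40 ± 0.32; adjusted p = 0.00519).

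BMF, a BH3-only protein tied to the cytoskeleton (chromosome 15, 40087890 to 40108892), had 21.3, 19.9 and 20.4 CPM with lipoic acid, against 14.3, 12.5 and 12.4 CPM in untreated libraries. It rose 1.57-fold (log2 0.66 ± 0.11; adjusted p = 0.00078), without overlap between groups. PMAIP1, which encodes NOXA, an antagonist of MCL1 (chromosome 18, 59899948 to 59904306), was the highest of the class at 59.0, 57.9 and 58.2 CPM with lipoic acid, against 49.0, 36.8 and 48.8 CPM without. The lipoic acid libraries lay close together and above the untreated ones, of which library 2 was lowest, and PMAIP1 rose 1.30-fold (log2 0.38 ± 0.10; adjusted p = 0.013).

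Of the other 4 BH3-only genes 1 fell and 3 were not called. BID, which links CASP8 to the mitochondrion, averaged 15.4 ± 1.78 CPM with lipoic acid and 20.2 ± 2.30 CPM without and fell 1.31-fold (adjusted p = 0.0268), a call lost without lipoic acid libraries 1 (0.119) or 3 (0.0717), without untreated libraries 1 (0.0618) or 2 (0.0522) and among even-count libraries only (0.0571). BCL2L11, which encodes BIM, averaged 25.7 ± 0.829 and 28.7 ± 1.42 CPM in lipoic acid and untreated libraries and was not called (adjusted p = 0.136). BAD, whose activity is set by phosphorylation, averaged 8.27 ± 0.436 and 6.64 ± 0.983 CPM (adjusted p = 0.143), with 23.7% of its exonic length under a gene on the other strand. After correction for GC content and length both were called, BCL2L11 lower (adjusted p = 0.0208) and BAD higher (0.0103). BIK averaged 1.93 ± 0.414 and 1.47 ± 0.254 CPM and was not called (adjusted p = 0.352).

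The promoters of the 4 BH3-only genes that rose are printed, a choice made by their calls. For each the 250 bases before the RefSeq start are shown (GRCh38.p14, each on the strand of its gene, 5′ to 3′). Capitals mark the motif TGATGNAA, the core of the composite element bound by ATF4 and CHOP, or the decamer motif of p53, both looked for on both strands and not overlapping each other here. The windows are HRK at chr12:116881442-116881691 (minus strand), BBC3 at chr19:47232668-47232917 (minus), PMAIP1 at chr18:59899746-59899995 (plus) and BMF at chr15:40108880-40109129 (minus).
HRK: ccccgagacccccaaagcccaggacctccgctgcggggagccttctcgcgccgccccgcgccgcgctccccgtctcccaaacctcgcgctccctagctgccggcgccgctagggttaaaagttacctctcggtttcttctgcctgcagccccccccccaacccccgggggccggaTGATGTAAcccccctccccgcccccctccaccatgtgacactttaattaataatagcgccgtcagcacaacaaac
BBC3: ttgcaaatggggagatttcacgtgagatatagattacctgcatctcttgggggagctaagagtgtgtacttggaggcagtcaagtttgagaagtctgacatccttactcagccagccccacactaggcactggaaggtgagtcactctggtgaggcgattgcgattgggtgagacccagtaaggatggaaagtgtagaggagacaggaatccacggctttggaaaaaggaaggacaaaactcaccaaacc
PMAIP1: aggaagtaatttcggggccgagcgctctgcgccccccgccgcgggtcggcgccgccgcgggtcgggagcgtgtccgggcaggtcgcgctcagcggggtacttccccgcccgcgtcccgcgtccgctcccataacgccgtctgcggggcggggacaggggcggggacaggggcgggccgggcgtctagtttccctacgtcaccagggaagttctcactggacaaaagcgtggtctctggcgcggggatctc
BMF: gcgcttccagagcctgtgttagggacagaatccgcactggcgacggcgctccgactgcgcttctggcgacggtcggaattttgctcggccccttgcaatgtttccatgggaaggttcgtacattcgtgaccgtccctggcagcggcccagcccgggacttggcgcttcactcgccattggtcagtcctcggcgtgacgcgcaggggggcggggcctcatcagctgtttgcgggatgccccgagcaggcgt
HRK held TGATGTAA from 75 to 68 bases before its start, and the other 3 windows held no exact match to either motif. No mismatch was allowed, so variant sites were not looked for and may lie in these windows.

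RefSeq promoter windows of 300 bases (250 before and 50 after a start) were found for 33 of the 43 members, 63 windows in all, since some genes have several starts. TGATGNAA was present in 2 of them (HRK and BCL2A1), 3.17%, against 3.62% of all 35116 promoter windows. The p53 decamer was present in 5 of them (BAK1, CASP8, FAS, FDXR and CASP9), 7.94%, against 6.63% of all windows. Both shares lie near those of all promoters. The 5 matches are shown in 60-base stretches, with the decamer in capitals, because 3 of these genes (BAK1, CASP8 and FAS) fell. Their positions are chr6:33580315-33580374 (BAK1, minus strand), chr2:201257889-201257948 (CASP8, plus, a second start), chr10:88991284-88991343 (FAS, plus, a second start), chr17:74872995-74873054 (FDXR, minus) and chr1:15524944-15525003 (CASP9, minus, a second start). A match is a description of letters, not a binding site, and only exact matches were counted. A window without a match may thus hold a variant site.
BAK1: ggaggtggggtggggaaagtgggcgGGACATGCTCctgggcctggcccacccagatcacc
CASP8: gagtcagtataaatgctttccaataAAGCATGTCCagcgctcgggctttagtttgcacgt
FAS: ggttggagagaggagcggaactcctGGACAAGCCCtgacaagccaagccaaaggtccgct
FDXR: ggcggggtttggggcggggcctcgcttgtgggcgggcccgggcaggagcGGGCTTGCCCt
CASP9: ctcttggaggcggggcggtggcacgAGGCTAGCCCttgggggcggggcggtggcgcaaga

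Of the BNIP genes, BNIP3L, which encodes the mitophagy receptor NIX (chromosome 8, 26382898 to 26505636), had 463, 464 and 488 CPM with lipoic acid, against 354, 394 and 382 CPM in untreated libraries. The groups did not overlap, and BNIP3L rose 1.25-fold (log2 0.33 ± 0.06; adjusted p = 0.00121), a call lost after correction for GC content and length (BNIP3L adjusted p = 0.0982). BNIP2, a BCL2-interacting protein, averaged 324 ± 16.2 and 302 ± 13.0 CPM in lipoic acid and untreated libraries and was not called (adjusted p = 0.194). Per kilobase of exon BNIP3L was second among all members, at 110 CPM per kilobase with lipoic acid and 87.4 without.

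**Figure D2:**
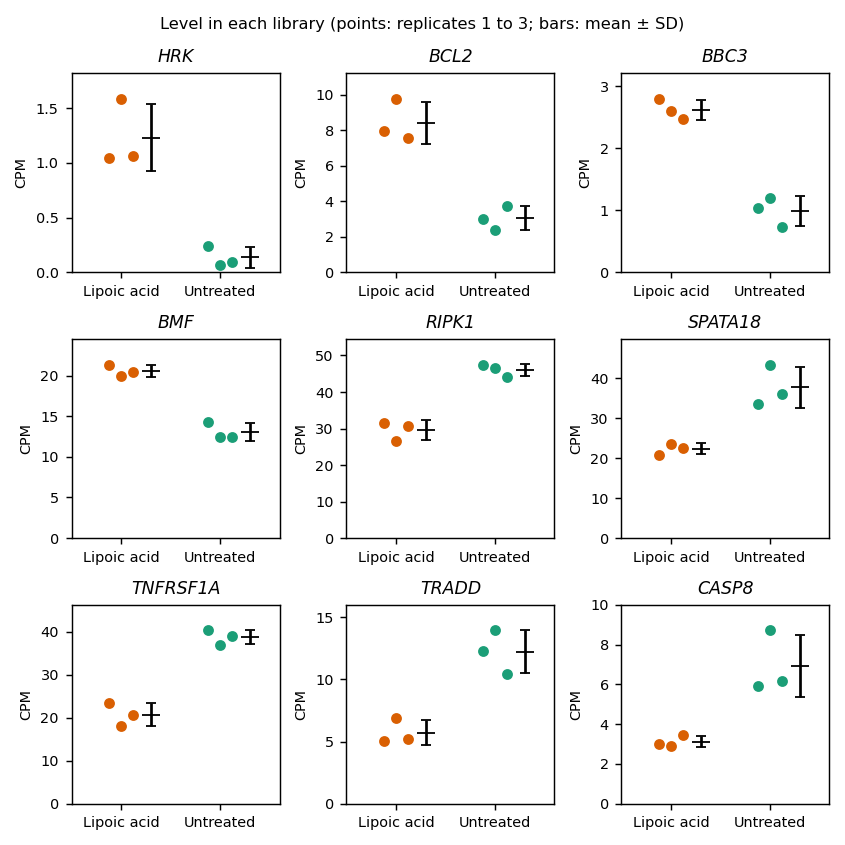
CPM (y axes from 0) of the 9 genes called at 1.5-fold or more in each lipoic acid library (orange) and untreated library (green), replicates 1 to 3 from left to right, with mean and SD in black. In each panel the groups do not overlap, and the spread is widest relative to the mean in untreated HRK (0.0665 to 0.246 CPM).

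None of the 10 caspase and apoptosome genes rose and 4 fell, in all 40% called against 47.4% of all tested genes. CASP8, the initiator caspase of the death receptor route (chromosome 2, 201233443 to 201287711), had 2.99, 2.91 and 3.43 CPM with lipoic acid, against 5.91, 8.71 and 6.15 CPM without. All lipoic acid libraries were below all untreated ones, of which library 2 was highest, and CASP8 fell 2.22-fold (log2 -1.15 ± 0.22; adjusted p = 0.0019). CASP6, an executioner caspase, averaged 15.8 ± 1.14 CPM with lipoic acid and 21.8 ± 2.87 CPM without and fell 1.38-fold (adjusted p = 0.00941).

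APAF1, the scaffold of the apoptosome, averaged 5.31 ± 0.710 and 7.62 ± 1.32 CPM in lipoic acid and untreated libraries, a 1.43-fold fall at the edge of the threshold (adjusted p = 0.04996). The APAF1 call was lost without lipoic acid libraries 1 (0.0939), 2 (0.147) or 3 (0.0845) and without untreated libraries 2 (0.118) or 3 (0.111). It was also lost with the replicate block (0.0785), RLE scaling (0.0525), no filter (0.0564), mitochondrial genes left out (0.0520) and at a threshold of 0.01. Among even-count libraries only, a fit with 1 control, the APAF1 fall was 1.18-fold. CASP2, an initiator-type caspase, averaged 89.2 ± 3.26 and 101 ± 6.53 CPM and fell 1.14-fold (adjusted p = 0.048). The CASP2 call was lost without lipoic acid libraries 1 (0.159), 2 (0.0696) or 3 (0.173) and without untreated libraries 1 (0.0825) or 2 (0.0961). RLE scaling (0.0616), no filter (0.0555), leaving out mitochondrial genes (0.0572) and a threshold of 0.01 also lost it. Among even-count libraries only, again with 1 control, the CASP2 fall was 1.12-fold. Among the 10 genes of this class, then, the calls of CASP8 and CASP6 held without each library in turn and those of APAF1 and CASP2 did not.

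BIRC2, which encodes the inhibitor of apoptosis cIAP1 (chromosome 11, 102347211 to 102378670), was the most abundant gene of the class in CPM, with 174, 175 and 176 CPM with lipoic acid, against 168, 155 and 169 CPM in untreated libraries. The groups did not overlap, yet the 1.07-fold difference did not pass (log2 0.09 ± 0.06; adjusted p = 0.203). XIAP, a direct caspase inhibitor, averaged 64.0 ± 5.77 and 63.7 ± 0.983 CPM (adjusted p = 0.953) and CYCS, cytochrome c, 125 ± 5.33 and 126 ± 13.7 CPM (adjusted p = 0.928) in lipoic acid and untreated libraries. CASP9, the caspase of the apoptosome, averaged 17.3 ± 0.972 and 15.0 ± 2.72 CPM (adjusted p = 0.249), and without untreated library 1 it was called higher (0.0443). CASP10, the second initiator caspase of the receptor route, averaged 5.88 ± 0.0976 and 7.04 ± 1.31 CPM (adjusted p = 0.266). DIABLO, an antagonist of the inhibitors of apoptosis, was low at 1.17 ± 0.460 and 0.791 ± 0.129 CPM (adjusted p = 0.296), and 29.6% of its exonic length is shared with other gene entries on the same strand, so its counts are uncertain.

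Of the 8 tested receptor and adaptor genes 4 fell with lipoic acid, namely TNFRSF1A, TRADD, RIPK1 and FAS. TNFRSF1A, which encodes the TNF receptor TNFR1 (chromosome 12, 6328757 to 6342114), had 23.4, 18.0 and 20.6 CPM with lipoic acid, against 40.2, 36.8 and 39.0 CPM in untreated libraries. All lipoic acid libraries lay below all untreated ones, and the fall was 1.87-fold (log2 -0.90 ± 0.10; adjusted p = 9.48e-05), the lowest adjusted p of any member. TRADD, the adaptor that binds its death domain (chromosome 16, 67154180 to 67160298), had 5.08, 6.90 and 5.17 CPM with lipoic acid, against 12.3, 13.9 and 10.4 CPM without. It fell 2.14-fold (log2 -1.10 ± 0.18; adjusted p = 0.000842) with no overlap between groups. RIPK1, the kinase that directs the same receptor complex to survival or death (chromosome 6, 3063991 to 3115187), had 31.5, 26.5 and 30.7 CPM with lipoic acid, against 47.4, 46.5 and 44.1 CPM without. Its groups were again separate, and RIPK1 fell 1.55-fold (log2 -0.64 ± 0.08; adjusted p = 0.000243). The calls of TNFRSF1A, TRADD and RIPK1 held in every one of the 17 other settings.

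Of the 3 receptor genes for the ligand TRAIL among the members, 1 rose and 2 were not called. TNFRSF10B, which encodes the signalling receptor DR5 (chromosome 8, 23020133 to 23069179), had 742, 716 and 736 CPM with lipoic acid, against 609, 577 and 577 CPM in untreated libraries. The groups did not overlap, and TNFRSF10B rose 1.24-fold (log2 0.31 ± 0.05; adjusted p = 0.000596). It was the highest member per kilobase of exon, at 142 CPM per kilobase with lipoic acid and 114 without. TNFRSF10A, which encodes the signalling receptor DR4, averaged 17.3 ± 1.58 and 19.95 ± 1.02 CPM in lipoic acid and untreated libraries and was not called (adjusted p = 0.134). TNFRSF10D, a decoy receptor with a truncated death domain, averaged 209 ± 2.33 and 215 ± 7.10 CPM and was not called (adjusted p = 0.588). The per-kilobase ratio of TNFRSF10D to TNFRSF10B was 0.416, 0.421 and 0.416 in lipoic acid libraries, against 0.519, 0.558 and 0.523 in untreated libraries, without overlap. An exact two-sided permutation test of 3 against 3 libraries can reach no p under 0.1, which this ratio reached (0.12 after adjustment over 6 such ratios).

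FAS, the receptor of FAS ligand, averaged 90.1 ± 1.86 CPM with lipoic acid and 105 ± 7.01 CPM without and fell 1.17-fold (adjusted p = 0.0186). The FAS call was lost without lipoic acid libraries 1 (0.0777) or 3 (0.0778), without untreated library 3 (0.0682) and among even-count libraries only (0.28). FADD, the adaptor that joins FAS and the TRAIL receptors to CASP8, was barely detected. It had no count in the lipoic acid libraries, an upper limit of 0.053 CPM over the group, and 6, 1 and 2 counts in untreated libraries 1 to 3, and 54.9% of its exonic length lies under a gene on the other strand.

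CFLAR, CASP10 and CASP8 lie side by side on chromosome 2 in that order on the plus strand (CFLAR from 201116104 to 201176687, CASP10 from 201182881 to 201229406), with 6193 and 4036 bases between them in the annotation. CFLAR, which encodes FLIP, a catalytically inactive relative of CASP8 that blocks it, averaged 232 ± 6.96 and 219 ± 6.05 CPM in lipoic acid and untreated libraries and was not called (adjusted p = 0.203). The per-kilobase ratio of CFLAR to CASP8 was 25.7, 24.9 and 21.8 in lipoic acid libraries, against 11.9, 7.83 and 11.7 in untreated libraries. These groups did not overlap, the mean ratio of 24.1 ± 2.04 against 10.5 ± 2.31 being a 2.34-fold difference of the geometric means (exact permutation p = 0.1, the smallest possible; 0.12 adjusted over the 6 ratios). CASP8 was called lower and CFLAR was not called, so this ratio largely restates the fall of CASP8. For CFLAR to CASP10 the ratio averaged 13.3 ± 0.437 with lipoic acid and 10.7 ± 1.84 without (exact permutation p = 0.1, adjusted 0.12). Of the other ratios, BCL2 to BCL2L1 averaged 0.0340 ± 0.00388 and 0.0139 ± 0.00418 and MDM4 to MDM2 0.491 ± 0.0240 and 0.350 ± 0.0517 in lipoic acid and untreated libraries (exact permutation p = 0.1 each, adjusted 0.12). XIAP to BIRC2 averaged 0.183 ± 0.0163 and 0.195 ± 0.00876, with overlapping groups (exact permutation p = 0.3, adjusted 0.3).

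Within the p53 loop, SPATA18 fell and the transcripts of the p53 antagonists MDM2 and MDM4 were not both called. SPATA18, which encodes Mieap, a p53-induced protein of mitochondrial quality control (chromosome 4, 52051331 to 52097292), had 20.8, 23.5 and 22.7 CPM with lipoic acid, against 33.7, 43.4 and 36.2 CPM in untreated libraries. The groups did not overlap, and SPATA18 fell 1.69-fold (log2 -0.76 ± 0.11; adjusted p = 0.000343). ZMAT3, an RNA-binding p53 target (chromosome 3, 179017223 to 179072279), was the most abundant of the loop in CPM, with 171, 184 and 177 CPM with lipoic acid, against 156, 157 and 161 CPM without. It rose 1.12-fold (log2 0.17 ± 0.06; adjusted p = 0.0318) without overlap. The ZMAT3 call was lost without lipoic acid libraries 2 (0.0892) or 3 (0.0793), without untreated libraries 1 (0.0516) or 3 (0.0506), among even-count libraries only (0.0613) and after correction for GC content and length (0.956).

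MDM4, the relative of MDM2 that binds and restrains p53, averaged 28.5 ± 2.07 CPM with lipoic acid and 19.1 ± 4.97 CPM without, untreated library 2 lying lowest at 13.4 CPM. It rose 1.49-fold (adjusted p = 0.0175), a call lost without lipoic acid libraries 1 (0.0632) or 3 (0.0533). MDM2, the ubiquitin ligase that p53 induces and that degrades it, averaged 70.1 ± 3.77 and 65.3 ± 8.19 CPM in lipoic acid and untreated libraries and was not called (adjusted p = 0.384). TP53INP1, a p53-induced nuclear protein, averaged 119 ± 5.96 and 109 ± 8.32 CPM (adjusted p = 0.155). Among even-count libraries only TP53INP1 was called higher (adjusted p = 0.0243). FDXR, mitochondrial ferredoxin reductase and a p53 target, averaged 10.7 ± 2.30 and 12.3 ± 1.04 CPM (adjusted p = 0.321).

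**Figure D3:**
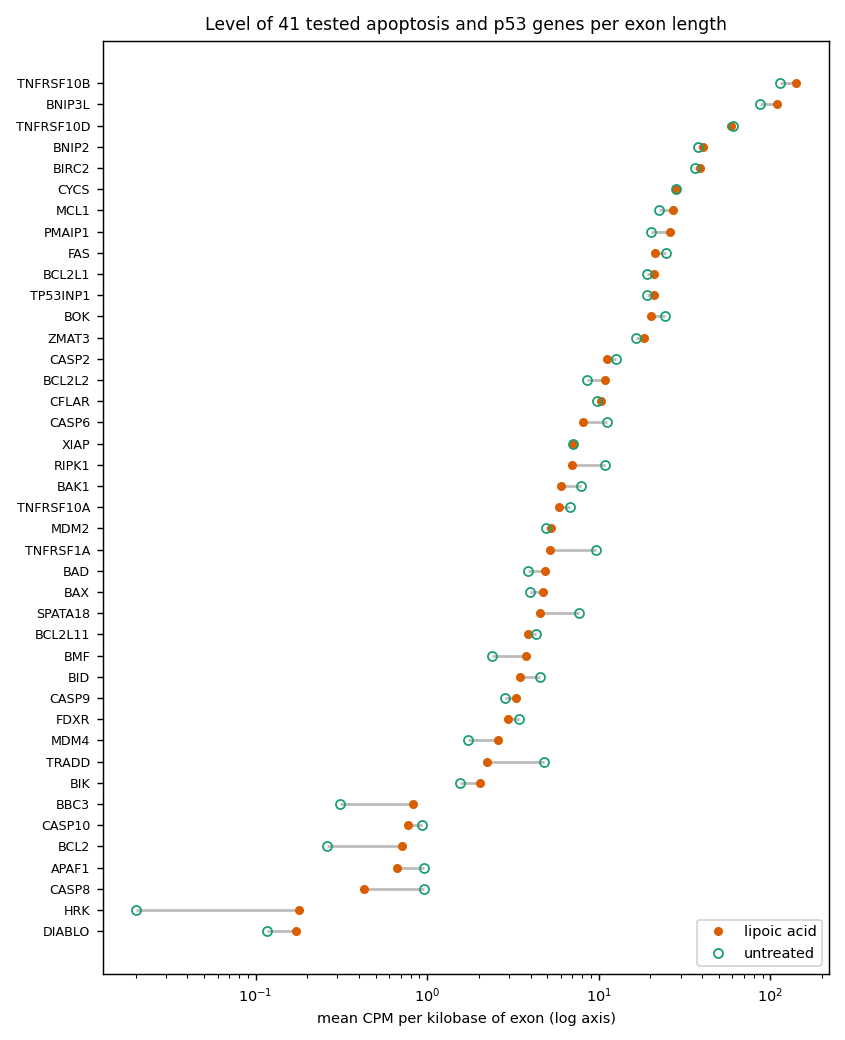
Mean level of the 41 tested genes in CPM per kilobase of exon (log axis) in lipoic acid libraries (filled orange) and untreated libraries (open green), ordered by the lipoic acid level, with exon lengths from GENCODE v29. TNFRSF10B and BNIP3L head the order in both groups, and HRK has the widest gap between the groups (0.180 against 0.0201 CPM per kilobase).

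Levels per kilobase of exon spanned from 142 CPM per kilobase (TNFRSF10B) to 0.173 (DIABLO) among tested members with lipoic acid. The first 6 places, TNFRSF10B, BNIP3L, TNFRSF10D, BNIP2, BIRC2 and CYCS, were the same in both groups. At the low end, below 1 CPM per kilobase in both groups, lay BBC3, CASP10, BCL2, APAF1, CASP8, HRK and DIABLO, so that 4 of the 9 members changed by 1.5-fold or more (HRK, BCL2, BBC3 and CASP8) were among the 7 lowest.

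Other genes of these pathways were taken from a list of 80 that were not members. Of 73 tested, 22 rose and 19 fell, in all 56.2% against the 47.4% of all tested genes. After correction for GC content and length 13 of the 73 rose and 20 fell, against 2408 and 3663 of all 13780 tested genes. The counts of each list below are small and stand beside 24.2% of all tested genes rising and 23.3% falling. For death receptor signalling 3 of 17 rose and 7 fell. TNFSF10, the gene of the ligand TRAIL, fell to 37.0 ± 0.144 CPM with lipoic acid, against 117 ± 9.10 CPM without (3.16-fold, adjusted p = 2.21e-07). TNFRSF1B, the TNF receptor TNFR2, had 42.5 ± 2.01 and 74.3 ± 3.21 CPM (1.75-fold lower, adjusted p = 1.94e-05). The decoy receptor gene TNFRSF10C was 1.95-fold lower (adjusted p = 0.00089; other genes on the same strand share 39.3% of its exons), TRAF2, an adaptor of TNF receptors, 1.40-fold lower and MLKL, the effector of necroptosis, 1.27-fold lower.

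Among further caspases, inhibitors and substrates 4 of 12 rose and 3 fell. CASP4, an inflammatory caspase, rose to 26.4 ± 1.71 CPM with lipoic acid, against 14.2 ± 0.169 CPM without (1.85-fold, adjusted p = 6.58e-05). CASP1, the caspase of the inflammasome, was at 0.532 ± 0.119 CPM with lipoic acid and at 0 in every untreated library. With even counts halved its level rests on 30 counts, and its mean lay 13.5-fold above a floor of 3 counts over the untreated group. CASP1 passed the filter through the lipoic acid libraries alone, so its call adds no support. It was not tested with even counts halved or with a filter of 1 CPM. PYCARD, the inflammasome adaptor, was 2.88-fold lower (59.7% of its exons lie under an antisense gene), ACIN1 2.29-fold lower (adjusted p = 0.00384; 0.0672 among even-count libraries only) and DFFA, the inhibitor of the apoptotic nuclease, 1.25-fold lower.

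Of 16 further BCL2-family and mitochondrial genes 5 rose and 3 fell. AIFM2, an NADH oxidoreductase also known as FSP1, rose 2.34-fold to 19.9 ± 2.05 CPM, against 8.50 ± 0.124 CPM without lipoic acid (adjusted p = 3.92e-05). AIFM1 (1.40-fold) and BNIP3, a mitophagy receptor like BNIP3L (1.204-fold), also rose. VDAC2 was 1.31-fold and BAG3 1.205-fold lower. The BNIP3 and BAG3 calls were lost after correction for GC content and length (adjusted p = 0.171 and 0.115), and that of VDAC2 without lipoic acid library 1 (0.0525) and among even-count libraries only (0.142).

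Of 28 further p53 targets and regulators, with stress genes that p53 or ATF4 can raise, 10 rose and 6 fell. KITLG, the ligand of the KIT receptor, rose 3.09-fold to 312 ± 24.6 CPM, against 101 ± 6.75 CPM without lipoic acid (adjusted p = 3.37e-07). DDIT3, the stress factor CHOP, rose 2.93-fold to 43.3 ± 1.56 CPM, against 14.8 ± 1.59 CPM (adjusted p = 2.15e-06), though 31.6% of its exonic length lies under genes on the other strand. CCNG1, cyclin G1, rose 1.51-fold (636 ± 11.3 and 423 ± 12.9 CPM), and SERTAD1 (1.47-fold) and EI24 (1.24-fold) fell. XPC, PLK2, PERP, TP53BP1, PPM1D, GDF15 and TRIB3 also rose, and TIGAR, PLK3, TP53I3 and RPS27L also fell, each by less than 1.5-fold. The other 12, among them the p53 targets GADD45A, BTG2, SESN1 and DDB2, were not called, with folds between 1.01 and 1.25 in either direction.

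The 23 called members differed in how far their calls held. In all 17 other settings 6 of the 11 rises held (BCL2, BCL2L2, BMF, BBC3, HRK and TNFRSF10B), as did 6 of the 12 falls (CASP6, CASP8, TNFRSF1A, RIPK1, TRADD and SPATA18). Among these the HRK call adds no support, since HRK passed the filter through the lipoic acid libraries alone. Without each library in turn 9 rises and 6 falls held, the further rises being MCL1, PMAIP1 and BNIP3L. Among even-count libraries only 17 of the 23 calls held in the same direction, and no called member changed sign under any setting.

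**Figure D4:**
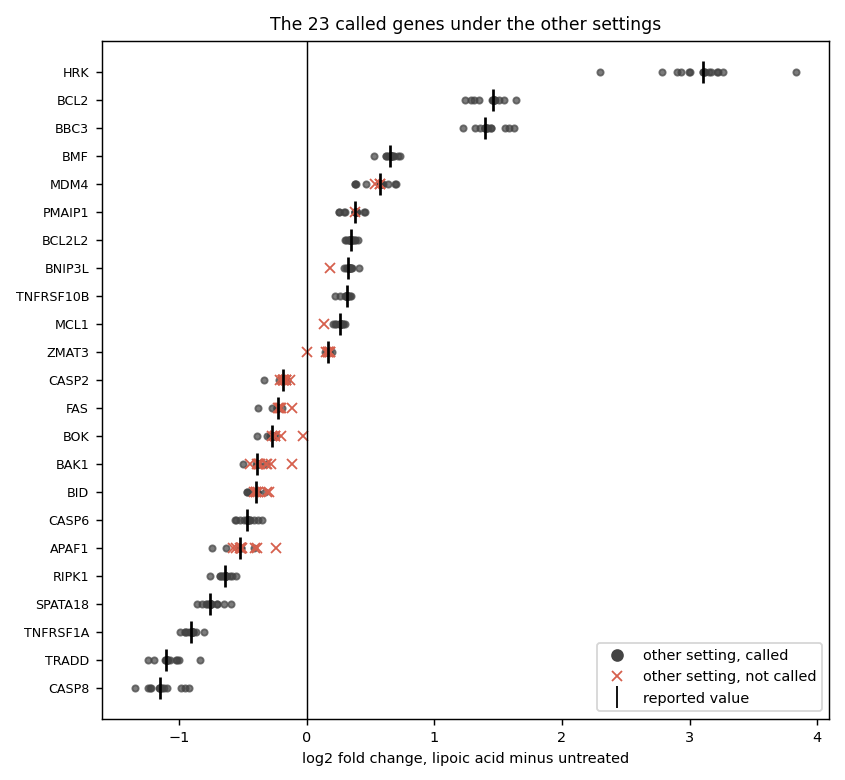
Log2 fold change of lipoic acid over untreated libraries for the 23 called genes, with the reported value (black bar) and the value under each of the 17 other settings (grey dots where called, red crosses where not). The rises from HRK to BMF and the falls of RIPK1, SPATA18, TNFRSF1A, TRADD and CASP8 were called in every setting, and HRK had the widest range.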

How the data were processed

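RNA of sorted H1-derived cells was measured in 3 lipoic acid and 3 untreated libraries, each from 1000 cells. The authors deposited whole-number counts for each gene symbol. The submitters' processing notes list HISAT2, featureCounts, DESeq2 and the build hg38. Versions, annotation, strand and multimapping settings are not given in the sources used here. All 6 sample columns were used and 0 were left out.

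Counts were tested with edgeR 4.0.16 in R 4.3.3 (filterByExpr by group, TMM scaling, quasi-likelihood F test, lipoic acid minus untreated) over 13780 genes with Benjamini-Hochberg adjustment, and calls are at an adjusted p under 0.05. CPM are counts times 1e6 over the TMM-scaled library size. The common biological coefficient of variation was 0.137. Floors of 3 counts cover counting error only. Exon lengths, positions and overlaps come from GENCODE v29 (GRCh38), which held 29248 of the 29436 symbols. Promoters come from RefSeq (GRCh38.p14), and protein sequences were not used here. Ratios of genes in 1 library were compared with exact two-sided permutation tests. The pairs were not planned in advance, and a ratio that holds a called gene restates that call in part.

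Alternatives were RLE scaling, no filter, a filter of 1 CPM, DESeq2 1.42.0, limma 3.58.1 voom with quality weights, a replicate block, leaving out each library, even counts halved, even-count libraries only, GC content and length correction (mgcv 1.9.3), mitochondrial genes left out and a threshold of 0.01. The fit was tested on simulated data. Members and lists were chosen with earlier results of these data known. Named in full were called members changed at least 1.5-fold whose higher group averaged 1 CPM or more, and per class the called member of lowest adjusted p and the member of highest CPM. From each list of other genes up to 5 called genes of lowest adjusted p were named. Further genes in the text were chosen after their values were seen.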

Additional observations from a re-analysis of the deposited data

How the results depend on the processing

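Of the 23 called members 12 kept their call in all 17 settings, and none changed sign. Falls among the members numbered 12 as reported, 6 to 9 without each library in turn, 7 among even-count libraries only and 6 at a threshold of 0.01, which also left 2057 falls over all genes. Of the 73 other pathway genes tested, 13 rose after correction for GC content and length, against 2408 of all 13780 tested genes. At 0.01 12 of them rose and 11 fell, against 2247 and 2057 of all 13780. Same-numbered libraries of the groups deviated together by r of 0.0598, 0.0602 and 0.0783, and each correlated best with its own number. Between libraries of the 2 groups with different numbers, r ran from -0.0579 to 0.00941. Whether same-numbered libraries were paired is not given in the labels, and these values cannot decide it. The reported fit had no replicate block. With the replicate block 11 of 41 members rose and 10 fell, against 3354 rises and 3203 falls over all 13780 tested genes. Log2 fold changes that turned round were all of uncalled members. Among even-count libraries only they were -0.0403 for BCL2L1, -0.0526 for CASP9, 0.14 for CYCS and -0.0181 for XIAP. After correction for GC content and length they were -0.11 for BNIP2, -0.16 for XIAP, -0.0706 for BIRC2, -0.12 for CFLAR, -0.11 for MDM2 and -0.0660 for TP53INP1. With limma voom they were 0.0192 for CYCS and -0.0221 for XIAP. Without each library in turn they ran from -0.0697 to 0.0763 for CYCS and from -0.0546 to 0.0714 for XIAP. The cause was not tested. Depth limits HRK, DIABLO, FADD and BCL2A1 most.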
